A study of Mus musculus with 8 samples.

Results

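The naive pluripotency transcription factors Pou5f1, Sox2, Nanog, Klf2, Klf4, Klf5, Esrrb, Tfcp2l1, Tbx3 and Prdm14 were examined in mouse embryonic stem cells (mESCs). These 10 genes were taken by name from the 43309 genes of the count table, with earlier results of these data known. All 10 were among the 16816 genes that reached 10 counts in any of the 8 libraries and were tested. The libraries formed 4 groups of 2, which combined the Zbtb24 genotype on the label with the number of cells put into the reaction.

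ZBTB24 is a zinc finger protein that is mutated in a form of the human ICF syndrome, an immunodeficiency with unstable centromeres. Libraries labelled WT came from mESCs with 1 floxed and 1 normal Zbtb24 allele (2lox/+), and libraries labelled KO from mESCs with both alleles recombined (1lox/1lox), so the WT cells also carried lox sites. All were of the strain J1 (129SV) and were grown in serum-containing medium on gelatin without feeder cells. The cells were lysed without an RNA preparation step, and cDNA was made with the SMARTer Ultra Low kit from 1000 cells (about 10 ng RNA, 10 PCR cycles) or 100 cells (about 1 ng RNA, 18 PCR cycles). Cell number and PCR cycles changed together and cannot be told apart. According to the series text the replicates are separate clones. The article gives a larger number of clones per genotype than that text, and the labels do not tie a library to a clone. Every p-value below measures the spread between these libraries and nothing wider. Where 1 library of a group is left out, the spread comes from the other groups in the fit, and the lone library is assumed to vary like them.

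The 10 factors are known as the core and the auxiliary layer of the network that keeps mESCs undifferentiated. POU5F1 (OCT4) and SOX2 bind DNA together and are required in every pluripotent state. NANOG, the KLF proteins, ESRRB, TFCP2L1, TBX3 and PRDM14 are expressed in the naive state of the early epiblast. They can replace each other in part, and several, Nanog and Tbx3 included, are known to vary from cell to cell in serum. In these bulk libraries, more cells that express a factor and more RNA per cell cannot be told apart.

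Most of the factors were higher in libraries labelled KO than in those labelled WT. Klf4 and Nanog differed most at 1000 cells, by 3.02-fold and 2.18-fold, and Tbx3 and Klf4 at 100 cells, by 2.38-fold and 2.17-fold. Of the called values, those of Pou5f1 alone changed direction, since at 1000 cells it was lower, and at 100 cells higher, under the KO label. At 1000 cells, 8 of the 10 factors were higher and 1 was lower at an adjusted p of at most 0.05 (edgeR quasi-likelihood test, Benjamini-Hochberg over all genes tested). Of all genes tested, 41.5% passed in that comparison, 20.9% as higher and 20.6% as lower. Higher genes made up 50.4% of those calls, and 39.3% when libraries were scaled by their size alone. At 100 cells, 7 factors were higher and 0 lower, where 34.2% of all genes passed, 17.6% as higher and 16.6% as lower. The 3 remaining factors, Klf5, Esrrb and Tfcp2l1, had unadjusted p of 0.213, 0.164 and 0.157 there. The median log2 ratio over the 10 factors was 0.67 at 1000 cells and 0.57 at 100 cells, and 0.00 over all genes tested in both. Among the factors, 5 (Sox2, Nanog, Klf4, Tbx3 and Prdm14) were higher at both cell numbers, which held for 7.52% of all genes, and 0 were lower at both, which held for 9.24%.

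The targeted gene itself went against a simple reading of the labels. Zbtb24 was at 14.1 and 16.4 cpm (counts scaled to the library total, adjusted by the trimmed mean of M-values, TMM) in the WT libraries of 1000 cells and at 40.9 and 37.7 in those labelled KO, and at 100 cells at 19.5 and 20.3 against 39.7 and 37.3. Its count was thus higher in every library labelled KO, with log2 ratios of 1.37 ± 0.11 (approximate SE, n = 2 and 2 libraries; adjusted p = 4.3e-11 in the edgeR test) and 0.91 ± 0.13 (adjusted p = 0.0011). The count covers all exons of the gene together and does not show whether the recombined exon is missing, so the genotype of each library rests on its label. Directions below refer to those labels.

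The sequence around the start of the genes was read for motifs because ZBTB24 is itself a DNA-binding protein. RefSeq promoter windows of 300 bases (250 before to 50 after the start, GRCm38.p6) were found for 7 of the 10 factors, 10 windows in all, and none was found for Klf5, Tbx3 and Prdm14. Both strands were searched for CAGGACCT (core of the motif known for ZBTB24), ATGCAAAT (the octamer of POU factors), CCACCC (KLF factors) and AAGGTCA (ESRRB). The search took exact matches alone, so a site that differs from these letters by 1 base was not counted. CAGGACCT stood in 2 of the 10 windows, 1 of Nanog and 1 of Esrrb, and in 1.988% of all 32851 windows. CCACCC or its reverse complement stood in 6 windows of 4 factors (Pou5f1, Nanog, Klf2 and Esrrb) and in 31.48% of all windows. The 2 windows of Nanog overlap, and their match is the same site, counted in both. The exact octamer and the exact AAGGTCA stood in 0 of the 10, against 1.735% and 4.718% of all windows. The 2 windows with CAGGACCT are shown with the window of Klf4, the factor with the largest ratio at 1000 cells, which held none of the 4 motifs. Capitals mark CAGGACCT, CCACCC and its reverse complement GGGTGG. The first is chr6:122707315-122707614 on the plus strand, the second chr12:86360867-86361166 on the plus strand and the third chr4:55532426-55532725 on the minus strand, each written 5′ to 3′ on its gene's strand.
Nanog: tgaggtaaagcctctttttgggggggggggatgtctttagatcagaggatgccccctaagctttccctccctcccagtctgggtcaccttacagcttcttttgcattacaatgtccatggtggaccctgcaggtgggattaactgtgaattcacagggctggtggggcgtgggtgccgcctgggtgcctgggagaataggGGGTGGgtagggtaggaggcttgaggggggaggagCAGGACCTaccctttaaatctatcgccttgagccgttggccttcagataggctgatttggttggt
Esrrb: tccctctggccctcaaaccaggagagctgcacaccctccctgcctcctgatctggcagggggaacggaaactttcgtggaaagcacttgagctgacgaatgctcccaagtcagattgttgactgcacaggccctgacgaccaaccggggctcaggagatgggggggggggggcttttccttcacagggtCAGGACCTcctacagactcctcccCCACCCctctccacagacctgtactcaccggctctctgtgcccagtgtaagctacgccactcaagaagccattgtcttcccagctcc
Klf4: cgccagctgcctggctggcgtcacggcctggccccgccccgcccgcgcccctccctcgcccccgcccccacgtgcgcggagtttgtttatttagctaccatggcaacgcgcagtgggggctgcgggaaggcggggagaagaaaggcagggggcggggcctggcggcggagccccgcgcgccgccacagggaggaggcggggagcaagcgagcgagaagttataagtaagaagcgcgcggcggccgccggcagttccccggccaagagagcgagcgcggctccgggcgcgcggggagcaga
The match in the Nanog window begins 15 bases before the start on which that window is placed, the second of 2 for Nanog. That start lies downstream of the gene start at 122707489, so the match lies inside the annotated gene. The Nanog window placed on the gene start held no CAGGACCT. The match in the Esrrb window begins 61 bases before the gene start. A match describes the letters in the window and no binding was measured here.

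**Figure D1:**
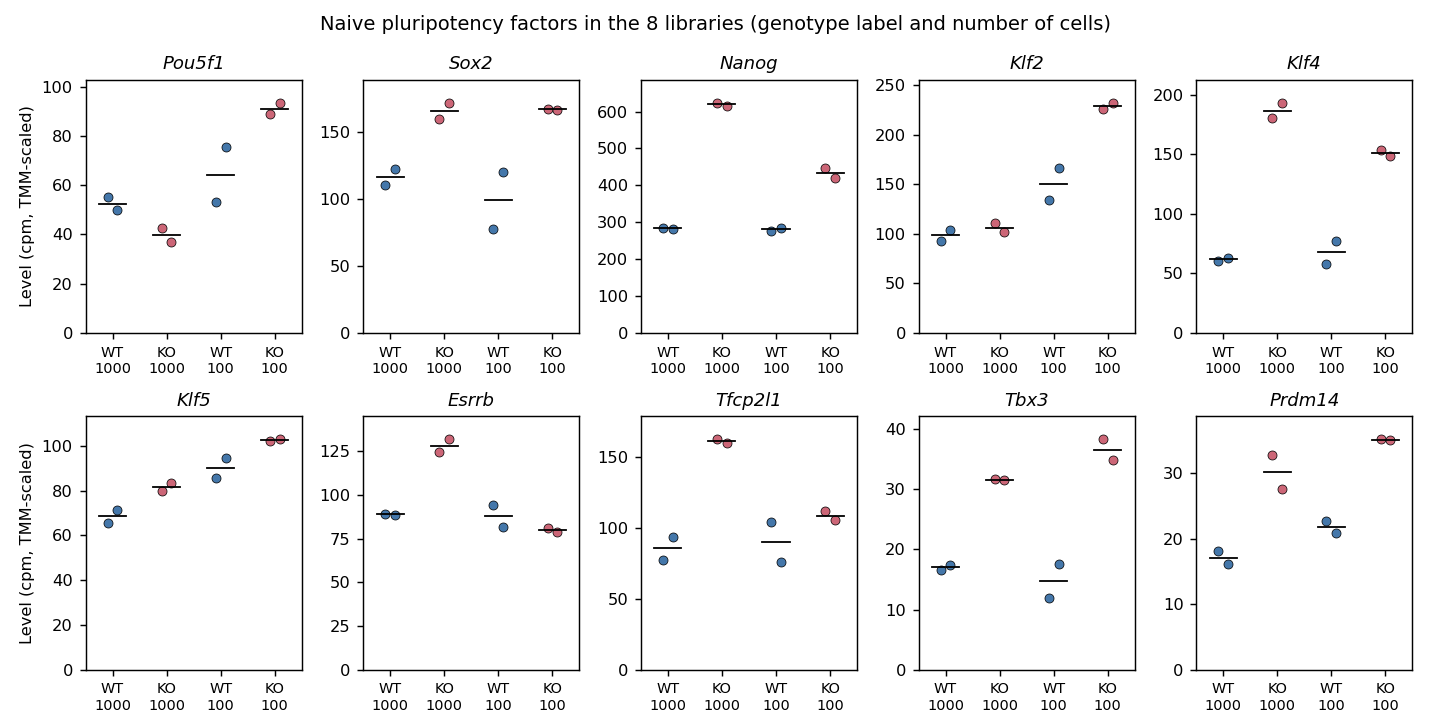
Level of each factor in the 8 libraries in TMM-scaled cpm (linear axes from 0), with blue points for libraries labelled WT, red points for libraries labelled KO and a black line at the mean of each group of 2. Nanog, Klf4, Sox2, Tfcp2l1, Tbx3 and Prdm14 lie higher in every library labelled KO than in any labelled WT.

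Among the 3 core factors, Nanog and Sox2 were higher in the libraries labelled KO at both cell numbers, and Pou5f1 changed sides. Nanog, a homeodomain protein (chromosome 6, 122707489 to 122714633 in GRCm38, plus strand), was at 285 and 282 cpm in the WT libraries of 1000 cells and at 624 and 616 in those labelled KO. At 100 cells Nanog was at 276 and 285 cpm in WT and at 446 and 421 in those labelled KO. The 4 WT libraries lay close together at both cell numbers, and all 4 libraries labelled KO stood well above them. The log2 ratio of Nanog was 1.13 ± 0.06 (adjusted p = 1.4e-15, edgeR) at 1000 cells and 0.58 ± 0.10 (adjusted p = 0.0027) at 100 cells. Of its 50-base exon windows, 4.61% also occurred in other genes, the pseudogene Nanog-ps1 among them, and fragments with several positions were discarded by the authors.

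Sox2, an HMG box protein and the partner of OCT4 (chromosome 3, 34650405 to 34652461, plus strand), was at 110.4 and 122 cpm in the WT libraries of 1000 cells, at 159 and 172 in those labelled KO, at 77.6 and 120.0 in the WT libraries of 100 cells and at 167 and 166 in those labelled KO. The WT libraries of 100 cells were the most unlike pair for this gene, and the libraries labelled KO were still higher throughout. The log2 ratio was 0.51 ± 0.07 (adjusted p = 7.8e-07, edgeR) at 1000 cells and 0.71 ± 0.17 (adjusted p = 0.011) at 100 cells.

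Pou5f1, the POU domain factor OCT4 (chromosome 17, 35506018 to 35510772, plus strand), was at 55.2 and 49.8 cpm in the WT libraries of 1000 cells, at 42.7 and 36.9 in those labelled KO, at 53.2 and 75.4 in the WT libraries of 100 cells and at 88.7 and 93.5 in those labelled KO. The lowest and the highest pair of libraries were thus both labelled KO and differed in cell number. The log2 ratio was -0.41 ± 0.09 (adjusted p = 0.00074, edgeR) at 1000 cells and 0.46 ± 0.15 (adjusted p = 0.043) at 100 cells. A gene on the opposite strand, Gm19553, covers 14.1% of the Pou5f1 exon bases, counting ignored the strand, and 10.1% of its 50-base windows occurred in Gm19553 or Gm5712, so its count is uncertain.

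The 3 Krüppel-like factors, zinc finger proteins that bind the same CACCC-type sites, differed from each other. Klf4, a target of LIF and STAT3 signalling (chromosome 4, 55527143 to 55532466, minus strand), was at 60.5 and 63.3 cpm in the WT libraries of 1000 cells, at 180.0 and 193 in those labelled KO, at 58.0 and 77.2 in the WT libraries of 100 cells and at 154 and 149 in those labelled KO. Every library labelled KO was above every WT library, with a log2 ratio of 1.59 ± 0.07 (adjusted p = 9.5e-17, edgeR) at 1000 cells and 1.12 ± 0.14 (adjusted p = 0.00049) at 100 cells. Klf2 (chromosome 8, 72319033 to 72321656, plus strand) was at 93.3 and 103.7 cpm in WT and at 110.7 and 101.7 in the libraries labelled KO at 1000 cells, which overlap, and at 134 and 166 against 226 and 232 at 100 cells, which do not. Its log2 ratio was 0.11 ± 0.07 (adjusted p = 0.25, edgeR) at 1000 cells and 0.57 ± 0.12 (adjusted p = 0.0067) at 100 cells. Klf5 (chromosome 14, 99298691 to 99315036, plus strand) was at 65.5 and 71.5 cpm against 79.6 and 83.4 at 1000 cells and at 85.6 and 94.6 against 102.3 and 102.8 at 100 cells. The Klf5 ratio was small, 0.26 ± 0.08 on the log2 scale (adjusted p = 0.0090, edgeR) at 1000 cells and 0.14 ± 0.11 (adjusted p = 0.33) at 100 cells. The call for Klf5 at 1000 cells was lost without the first WT library (adjusted p = 0.11), without the second library labelled KO (adjusted p = 0.076), with scaling by library size alone (0.082) and in 1 fit of all 8 libraries (0.053).

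Of the auxiliary factors, Esrrb and Tfcp2l1 were higher in the libraries labelled KO at 1000 cells, and Tbx3 and Prdm14 at both cell numbers. Esrrb, an orphan nuclear receptor (chromosome 12, 86361117 to 86521628, plus strand), was at 89.0 and 88.8 cpm in WT and at 124.6 and 132 in the libraries labelled KO at 1000 cells, and at 94.1 and 81.6 against 81.3 and 79.0 at 100 cells. At 100 cells both libraries labelled KO lay just below the lower WT library. The log2 ratio was 0.53 ± 0.07 (adjusted p = 4.5e-07, edgeR) and -0.18 ± 0.12 (adjusted p = 0.27). Tfcp2l1, a CP2 family factor downstream of LIF and STAT3 (chromosome 1, 118627945 to 118685168, plus strand), was at 77.3 and 93.5 cpm against 162 and 159.5 at 1000 cells and at 103.8 and 76.2 against 111.8 and 105.5 at 100 cells. The groups did not overlap in either comparison, but at 100 cells the gap to the higher WT library was small, and the log2 ratio was 0.92 ± 0.08 (adjusted p = 7.6e-11, edgeR) and 0.23 ± 0.15 (adjusted p = 0.26).

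Tbx3, a T-box factor (chromosome 5, 119670669 to 119684724, plus strand), was at 16.6 and 17.4 cpm in WT and at 31.6 and 31.5 in the libraries labelled KO at 1000 cells, and at 12.0 and 17.6 against 38.3 and 34.8 at 100 cells. Prdm14, a PR domain protein that represses Fgf signalling genes and DNA methyltransferases (chromosome 1, 13113457 to 13127163, minus strand), was at 18.1 and 16.1 cpm against 32.8 and 27.6 at 1000 cells and at 22.7 and 20.9 against 35.1 and 35.1 at 100 cells. For both genes the lowest library labelled KO was above the highest WT library. These are the 2 factors with the fewest counts, 121 to 513 per library for Tbx3 and 197 to 471 for Prdm14. The log2 ratios of Tbx3 were 0.89 ± 0.11 (adjusted p = 1.0e-07, edgeR) and 1.25 ± 0.18 (adjusted p = 0.0011), and those of Prdm14 0.81 ± 0.12 (adjusted p = 1.7e-06) and 0.64 ± 0.13 (adjusted p = 0.0061).

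Over both cell numbers, 6 of the 10 factors had their 4 KO-labelled values above their 4 WT-labelled values, which held for 14.1% of all genes tested. None of the factors had the 4 KO-labelled values below, which held for 13.9%. The other 4, Pou5f1, Klf2, Klf5 and Esrrb, overlapped. Leaving out either library labelled KO of 100 cells ended the calls of Pou5f1 (adjusted p = 0.17 and 0.27), Nanog (0.12 and 0.074), Klf2 (0.081 and 0.12) and Prdm14 (0.11 and 0.11) at that cell number in the edgeR test, and left 3 called, while their ratios kept their sign. Pou5f1 also lost its call when all genes with a count were tested (adjusted p = 0.090). Leaving out the first WT library of 100 cells brought Tfcp2l1 past the threshold (log2 ratio 0.48), and leaving out the second brought Klf5 (0.22) and Esrrb (-0.27) past it, in fits where the spread comes from the 2 libraries labelled KO alone and the single WT library is assumed to vary like them.

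**Figure D2:**
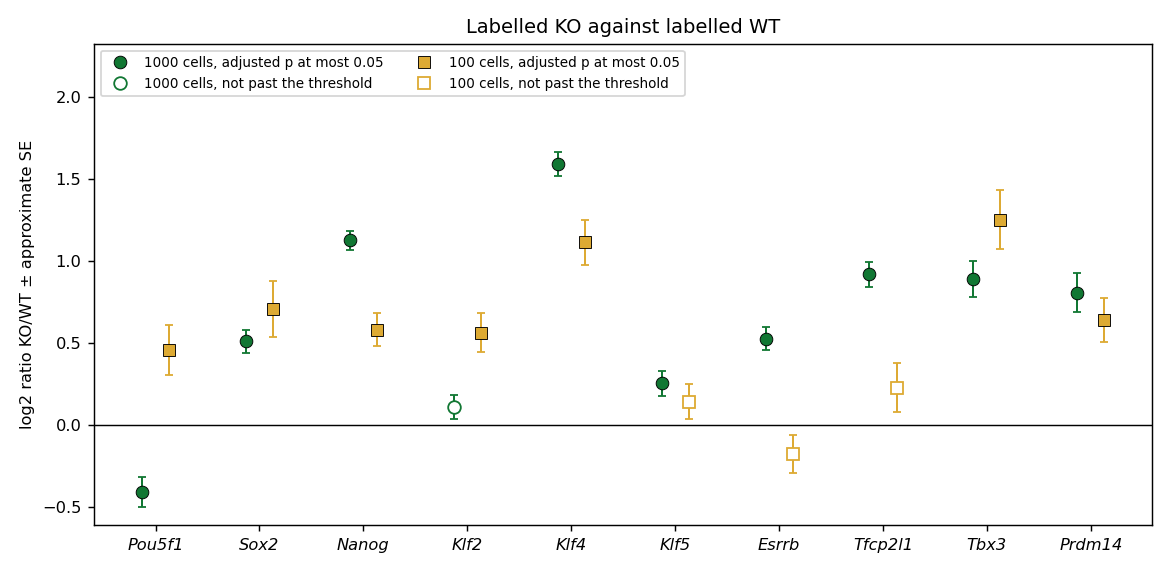
Log2 ratio of libraries labelled KO to libraries labelled WT for each factor at 1000 cells (green circles) and 100 cells (yellow squares), with approximate SE; filled symbols passed an adjusted p of 0.05. Klf4 is highest at 1000 cells (1.59) and Tbx3 at 100 cells (1.25), and Pou5f1 lies below 0 at 1000 cells and above it at 100 cells.

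The KO to WT ratio itself was compared between the cell numbers with an interaction term over all 8 libraries. For 5 factors the ratio differed, 2 with a more positive value at 100 cells and 3 with a more negative value, where 16.3% of all genes passed, 9.28% as more positive and 7.05% as more negative. Pou5f1 differed by 0.90 ± 0.19 on the log2 scale (adjusted p = 0.0082, edgeR) and Klf2 by 0.50 ± 0.15 (adjusted p = 0.035). Esrrb differed by -0.66 ± 0.13 (adjusted p = 0.0058), Tfcp2l1 by -0.64 ± 0.18 (adjusted p = 0.027) and Nanog by -0.50 ± 0.12 (adjusted p = 0.011). For Sox2, Klf4, Klf5, Tbx3 and Prdm14 the difference was 0.24 ± 0.20, -0.44 ± 0.16, -0.07 ± 0.13, 0.40 ± 0.21 and -0.12 ± 0.18, with adjusted p from 0.075 to 0.77. Leaving out any 1 library of 1000 cells, or either library labelled KO of 100 cells, left 1 to 3 factors called, and leaving out a WT library of 100 cells gave up to 7. With scaling by library size alone the call of Tfcp2l1 was lost (adjusted p = 0.054), and when all genes with a count were tested that of Klf4 was gained (-0.42, adjusted p = 0.043). Esrrb kept its call in all of these fits.

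Cell numbers were also compared within each label, where 1 factor was called in the WT libraries and 9 in those labelled KO. Between the WT libraries of 100 and 1000 cells, 1 factor, Klf2, was called higher with 100 cells, at 0.59 ± 0.13 on the log2 scale (adjusted p = 0.043, edgeR). Of all genes, 0.827% passed there, 0.149% as higher and 0.678% as lower. The Klf2 call was lost without either WT library of 1000 cells (adjusted p = 1 and 0.97), with scaling by library size alone and with limma-voom. The number of factors called was 4 without either WT library of 100 cells. Those 2 libraries differed from each other by a chi-square of 17.6 per degree of freedom over genes, against 1.99 to 3.28 for the other pairs.

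Between the libraries labelled KO, 9 of the 10 factors were called, 5 higher and 4 lower at 100 cells, where 52.1% of all genes passed, 27.3% as higher and 24.8% as lower. Pou5f1 had a log2 ratio of 1.20 ± 0.08 and Klf2 of 1.11 ± 0.06, while Klf5 (0.33), Prdm14 (0.22) and Tbx3 (0.22) were higher by less. Esrrb (-0.67 ± 0.06), Tfcp2l1 (-0.56 ± 0.06), Nanog (-0.51 ± 0.05) and Klf4 (-0.30 ± 0.06) were lower at 100 cells. Sox2 had a log2 ratio of 0.01 ± 0.06 (adjusted p = 0.87, edgeR). The small ratios of Tbx3 and Prdm14 lost their call without the first library labelled KO of 100 cells (adjusted p = 0.35 and 0.14) and without the second of 1000 cells (0.070 and 0.40), and Prdm14 also without the second of 100 cells (0.14). The DESeq2 test called neither (adjusted p = 0.23 and 0.25). In edgeR both calls were also lost with scaling by library size alone (0.054 and 0.062) and when all genes with a count were tested (0.10 and 0.13). The same held in 1 fit of all 8 libraries (0.26 and 0.18), and with limma-voom for Prdm14 (0.054). The comparisons within and between labels share libraries and are not independent of each other.

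**Figure D3:**
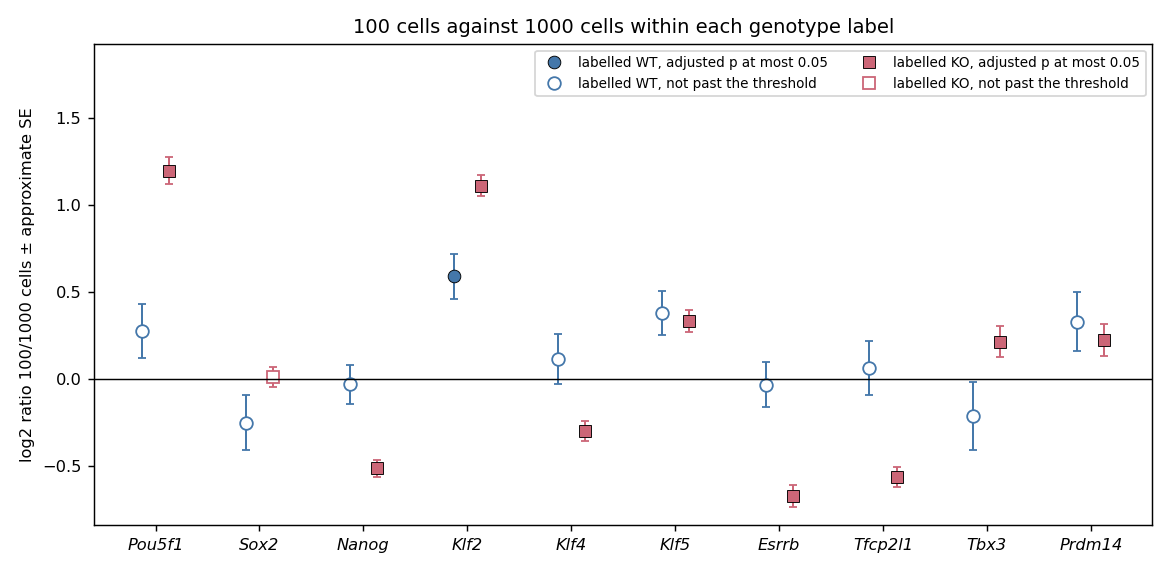
Log2 ratio of 100 cells to 1000 cells for each factor within libraries labelled WT (blue circles) and labelled KO (red squares), with approximate SE; filled symbols passed an adjusted p of 0.05. Of the circles, that of Klf2 (0.59) is filled, and in the libraries labelled KO the values run from -0.67 for Esrrb to 1.20 for Pou5f1.

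The cell type on the label was compared with marker genes. The 10 factors were present in every library, and their levels per kilobase of exon in the WT libraries of 1000 cells lay between percentile 50.6 (Tbx3) and percentile 97.3 (Nanog) of the genes tested. Summed levels of the markers of primitive endoderm (7 genes), trophoblast (6), mesoderm (4) and fibroblasts or feeder cells (6) stayed at or below 20.1 cpm in every library, and Foxa2 was at 0 in all 8. Of the 7 neuronal and 5 glial markers, Stmn2 (342 to 492 cpm), Tubb3 (157 to 269) and Aldoc (46.2 to 149.9) were abundant in all libraries. Others, such as Nefl, Map2 and Rbfox3, were present in all at lower levels. Nefl, Map2 and Rbfox3 were highest in the 2 libraries labelled KO of 100 cells. Map2 was at 17.8 and 21.1 cpm there, against at most 6.71 elsewhere. Rbfox3 was at 6.26 cpm or more there, against at most 2.57, and Nefl at 28.9 and 29.6, against at most 24.05. The glial sum was 263 and 256 cpm in the 2 libraries labelled KO of 100 cells and 49.0 to 131 cpm in the other 6, and the neuronal sum ran from 568 to 771 cpm over all 8. Stmn2, the most abundant of them, was at 342 and 369.5 cpm in the libraries labelled KO of 100 cells, below the 462 and 492 of the WT libraries of 100 cells, and Tubb3 at 222 and 225 lay between the WT values of 199 and 248. The myelin gene Mbp (105.6 and 102.7 cpm) and the synaptic genes Snap25 (83.6 and 77.1) and Syt1 (22.7 and 20.5) were high in the 2 libraries labelled KO of 100 cells alone, against at most 2.64, 3.04 and 1.48 cpm elsewhere. The astrocyte genes Aqp4 (2.83 and 2.57 cpm) and Gfap (2.31 and 2.72) were also highest there, against at most 0.075 and 0.867 cpm elsewhere. All results at 100 cells for libraries labelled KO, Sox2 included, which neural cells also express, carry this difference, and its part in them was not tested. At 1000 cells Snap25 was at 1.85 and 1.39 cpm in WT and at 2.80 and 3.04 in the libraries labelled KO, Syt1 at 0.23 and 0.41 against 1.48 and 1.18, and Mbp at 1.16 and 1.63 against 2.64 and 1.798. Aldoc was at 64.1 and 46.2 cpm against 127.6 and 109.4, and the part of these values in the ratios at 1000 cells was not tested.

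**Figure D4:**
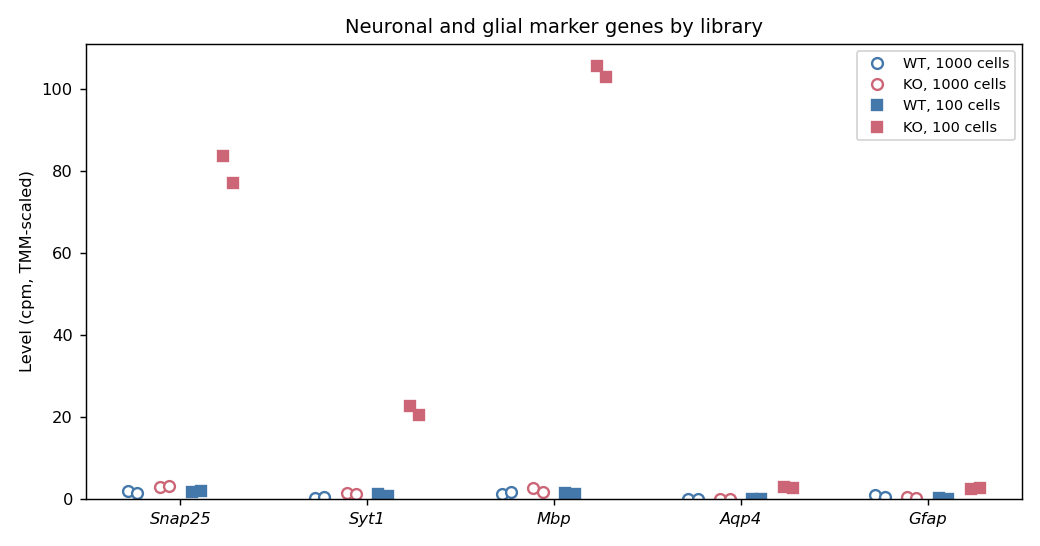
Level in TMM-scaled cpm (linear axis from 0) of 2 synaptic genes (Snap25, Syt1), 1 myelin gene (Mbp) and 2 astrocyte genes (Aqp4, Gfap) in the 8 libraries, with open circles for 1000 cells, filled squares for 100 cells, blue for WT and red for KO labels. Only the 2 libraries labelled KO of 100 cells are high, for example at 105.6 and 102.7 cpm for Mbp.

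Levels were compared between the factors per kilobase of exon (all exons of a gene joined). Nanog was highest in every group and Tbx3 lowest. In the WT libraries of 1000 cells the order was Nanog (126.5 ± 0.93 cpm per kilobase, SD, n = 2), Sox2 (56.6 ± 4.1), Klf2 (53.3 ± 4.0), Pou5f1 (23.4 ± 1.7), Klf4 (20.3 ± 0.66), Esrrb (14.7 ± 0.028), Klf5 (13.2 ± 0.82), Tfcp2l1 (9.05 ± 1.2), Prdm14 (6.68 ± 0.55) and Tbx3 (2.57 ± 0.087). Sox2 and Klf2 overlapped in that order, and the other neighbours did not. In the libraries labelled KO of 1000 cells Klf4 came after Sox2 with 61.2 ± 3.1, overlapping Klf2 with 57.5 ± 3.4, and Pou5f1 fell behind Esrrb with 17.7 ± 1.8, overlapping Tfcp2l1 with 17.05 ± 0.21. With 100 cells Klf2 came directly after Nanog under both labels, at 81.2 ± 12 in WT and 124.0 ± 2.6 in the libraries labelled KO. The order depends on the length used, since over the longest transcript Esrrb (20.7), Klf4 (20.4) and Klf5 (20.4) lay side by side in the WT libraries of 1000 cells and Pou5f1 was at 38.6. The place of Pou5f1 is also uncertain because Gm19553 covers 14.1% of its exon bases and fragments with several genes or positions were discarded.

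The ratio of each factor was set beside that of its neighbours, because whole chromosomes differed in their median ratio. Tfcp2l1 and Prdm14 lie on chromosome 1, whose genes (mean level of 10 cpm or more) had a median log2 ratio of 0.54 at 1000 cells and 0.50 (beside Tfcp2l1) or 0.49 (beside Prdm14) at 100 cells, on the log2(cpm + 0.5) scale, where the median of all genes was 0.02 and 0.01. Within 5 Mb of Tfcp2l1 the median was 0.60 at 1000 cells and 0.39 at 100 cells, so that Tfcp2l1 exceeded it by 0.31 at 1000 cells and stood at -0.11 against it at 100 cells. Within 5 Mb of Prdm14 the median was 0.62 and 0.50, and Prdm14 exceeded it by 0.18 and 0.17. Klf2 lies on chromosome 8, with medians of -0.25 and -0.21. With genes down to 1 cpm the medians were 0.45 and 0.44 for chromosome 1 and -0.25 and -0.12 for chromosome 8. Klf4, Nanog and Tbx3 exceeded the median of their neighbours by 1.59, 1.11 and 0.98 at 1000 cells and by 1.24, 0.56 and 1.29 at 100 cells. Sox2, Klf2 and Pou5f1 exceeded theirs by 0.76, 0.68 and 0.63 at 100 cells. At 1000 cells Sox2 and Klf2 exceeded theirs by 0.39 and 0.36, and Pou5f1 stood at -0.21 against its own. Esrrb stood at 0.54 against its neighbours at 1000 cells and at -0.14 at 100 cells, and Klf5 at 0.02 and 0.30. Whether the ratios of chromosome 1 have a part in those of Tfcp2l1 and Prdm14 was not tested.

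**Figure D5:**
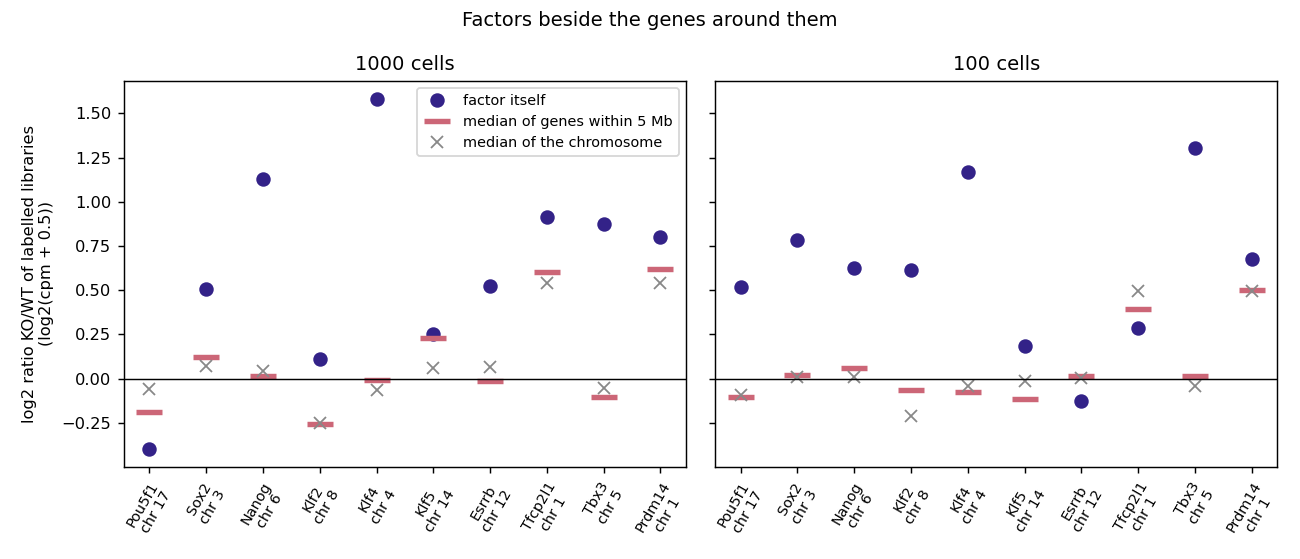
Log2 ratio of libraries labelled KO to WT for each factor (dots), the median of genes within 5 Mb on each side (red bars) and the median of its chromosome (crosses), at 1000 cells (left) and 100 cells (right). Klf4 and Tbx3 stand 0.98 to 1.59 above their neighbours in both panels and Nanog 1.11 above at 1000 cells, while at 100 cells Sox2 (0.76), Klf2 (0.68) and Pou5f1 (0.63) exceed theirs by more than Nanog (0.56). For Tfcp2l1 and Prdm14 on chromosome 1 the neighbours themselves lie between 0.39 and 0.62.

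Other genes of the pluripotency network stood on both sides. Of 15 partners and targets (such as Stat3, Sall4, Zfp42 and Fgf4), 5 were called higher and 5 called lower under the KO label with 1000 cells, and 2 called higher and 5 called lower with 100 cells. Over all genes, 20.9% were higher and 20.6% lower with 1000 cells, and 17.6% and 16.6% with 100 cells. Their median log2 ratio was -0.08 and -0.24. Lefty1, a Nodal antagonist, and Nr5a2, an orphan nuclear receptor, were higher at both cell numbers, with log2 ratios of 0.53 and 1.01 for Lefty1 and of 0.46 and 0.44 for Nr5a2. The lower genes with the largest ratios were Dppa3, which protects DNA methylation in the zygote (-1.18 and -1.48), Nr0b1, a nuclear receptor without a DNA-binding domain (-1.03 and -1.34), and Zscan10, a zinc finger factor (-0.54 and -0.55). The calls of Nr5a2 (adjusted p = 0.35 and 0.25, edgeR) and Zscan10 (0.13 and 0.12) at 100 cells were lost without the first and the second library labelled KO of 100 cells, and that of Nr5a2 also in the DESeq2 test (0.080). Nr5a2 lies on chromosome 1, as Tfcp2l1 and Prdm14 do, and so does Lefty1. Of the 50-base windows of Lefty1 17.9% occurred in Lefty2, and of those of Dppa3 16.5% in other genes, its pseudogene included.

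Of 10 genes of the exit from the naive state and of the primed state, 9 were tested (Fgf5 had too few counts), and 2 were higher and 3 lower at 1000 cells and 0 higher and 1 lower at 100 cells. Over all genes 41.5% and 34.2% were called. Dnmt3b, a de novo DNA methyltransferase that the primed state expresses strongly, was lower at both cell numbers. It was at 183 and 203 cpm in the WT libraries of 1000 cells and at 44.8 and 41.3 in those labelled KO, and at 212 and 214 against 87.5 and 86.3 at 100 cells. All 4 libraries labelled KO were thus below all WT libraries, with log2 ratios of -2.17 ± 0.08 (adjusted p = 6.0e-19, edgeR) and -1.34 ± 0.10 (adjusted p = 4.8e-05). The Dnmt3b ratio differed between the cell numbers by 0.87 ± 0.13 (adjusted p = 0.0011).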

How the data were processed

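Gene counts of 8 mESC libraries (4 groups of 2) were used as deposited. To make these counts the authors demultiplexed reads with CASAVA 1.8.2, removed ribosomal RNA with Bowtie2 2.1.0, mapped to mm10 with TopHat2 2.0.10 and assigned fragments to genes of GENCODE M4 with HTSeq 0.6.1 (union mode), ignoring strand and discarding fragments with several genes or positions. Removal of PCR duplicates was not stated, so a count is not a molecule. Totals ran from 9666985 to 16686525 counts per library. No 2 libraries had identical values.

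Genes that reached 10 counts in any library entered edgeR 4.0.16 (quasi-likelihood F test, TMM scaling, Benjamini-Hochberg over 16816 genes, threshold 0.05), separately per cell number and per genotype label, and over all 8 libraries for the interaction. The SE is the absolute log2 ratio divided by the square root of F. Symbols, positions and exon lengths came from GENCODE M21 (GRCm38, the mm10 assembly), which matched 42425 of 43309 identifiers. Promoters came from RefSeq tables. Alternatives were DESeq2 1.42.0 (test and size factors), limma-voom 3.58.1, scaling by library size, no filter beyond 1 count, 1 fit of all libraries, a replicate block, and each library left out, and for chromosome medians a minimum of 1 in place of 10 cpm. The fits were tested on simulated data. Scripts ran in R 4.3.3 and Python 3.11.15.

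The 10 factors are all named. Of the network and primed gene lists, genes called with the same sign at both cell numbers with the 3 largest mean ratios per direction are named. Members and lists were chosen with earlier results of these data known. A comparison of KLF protein sequences was not run because no protein sequences were used here. A further glial marker is not reported here.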

Additional observations from a re-analysis of the deposited data

Results flagged for a closer look

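For 5 of the 10 factors the ratio of libraries labelled KO to libraries labelled WT differed between 100 and 1000 cells in the interaction test over all genes (edgeR, adjusted p at most 0.05). The difference, as the log2 ratio at 100 cells minus that at 1000 cells, was 0.90 for Pou5f1, 0.50 for Klf2, -0.50 for Nanog, -0.66 for Esrrb and -0.64 for Tfcp2l1. Pou5f1 was called in opposite directions at the 2 cell numbers, at -0.41 with 1000 cells and 0.46 with 100 cells. The call of Klf2 was lost without any 1 of the 4 libraries of 1000 cells or the 2 labelled KO of 100 cells (adjusted p 0.069 to 0.16), those of Nanog (0.052 to 0.092) and Tfcp2l1 (0.080 to 0.14) without any of 5 libraries, and that of Pou5f1 (0.052 to 0.063) without any of 3. That of Tfcp2l1 was also lost with scaling by library size alone (0.054), while Esrrb kept its call. The 2 libraries labelled KO of 100 cells that enter each of these values also held Mbp at 105.6 and 102.7 cpm, and the part of this in the differences was not tested.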

How the results depend on the processing

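Over the alternatives, 106 of 110 refitted KO to WT values of the factors at 1000 cells and 98 of 110 at 100 cells kept their direction and their side of the threshold, and none reversed. The others were 4 lost calls at 1000 cells and 9 lost and 3 gained at 100 cells. Leaving out single libraries gave 2066 to 9551 genes and 3 to 9 factors called at 100 cells (5756 and 7 with all), 6 to 2631 genes and 0 to 4 factors between WT cell numbers (139 and 1), and 727 to 5633 genes and 1 to 7 factors in the interaction (2745 and 5). In these fits the group left with 1 library gives no spread of its own. The calls rose without a WT library of 100 cells, and the cause was not tested.

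Between the WT cell numbers, the genes called were 212 with the DESeq2 test, 79 with library size alone, 463 with no filter beyond 1 count and 676 in 1 fit of all 8 libraries. The factors called were 0 with library size alone, 2 in 1 fit of all libraries and 0 with limma-voom. Between cell numbers in libraries labelled KO the DESeq2 test called 5641 genes, against 8753. With genes down to 1 cpm, 14 of the 20 chromosome medians beside the factors moved. A median counted as moved if it changed by more than the SD between the libraries labelled KO. That limit can be very small, and the median beside Klf5 at 1000 cells counted at 0.0604 and then 0.0595. Chromosome 1 was counted beside both Tfcp2l1 and Prdm14. With library size alone 39.3% of the calls at 1000 cells were higher, against 50.4%. The median log2 ratio of all genes tested was then -0.086, against -0.00089. The cause was not tested.

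Same-numbered libraries correlated at -0.12 to 0.17 in their deviations from the group means, so the numbers were not taken as pairing. A replicate block gave 7426, 6433, 285, 8756 and 2684 genes called (KO to WT at 1000 and at 100 cells, cell number in WT and in KO, interaction) and changed no call of a factor. The crossed block, chosen after seeing the data, gave 512 genes between WT cell numbers.

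Signs reversed when single libraries were left out, for values that passed no threshold with all libraries. Between WT cell numbers the log2 ratios ranged from -0.19 to 0.30 for Tfcp2l1, -0.57 to 0.011 for Sox2, -0.49 to 0.014 for Tbx3, -0.075 to 0.28 for Klf4 and -0.16 to 0.10 for Esrrb. Between cell numbers in KO, Sox2 ranged from -0.033 to 0.068. The interaction ranged from -0.037 to 0.59 for Sox2 and -0.14 to 0.0044 for Klf5.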
